A study of Mus musculus with 4 samples.

Results

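Clade B serpins are protease inhibitors that act mostly inside cells, and 7 of their genes were described here across cell clusters and isoproterenol treatment: Serpinb2, Serpinb1a, Serpinb6a, Serpinb6b, Serpinb8, Serpinb9 and Serpinb10. They were chosen by symbol, and Serpinb2 as the lead on its measured UMI counts, because its count was higher with isoproterenol in wild type cells in these same libraries. Of the 7 genes, 6 have a row among the 32285 genes of the tables, and Serpinb10 is not analysed here. The tables hold 27 rows of clade B symbols in all, so 21 others stand beside the 6.

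A serpin offers a protease a bait loop, is cut once, and traps the protease in a dead complex. Most serpins are secreted, whereas clade B members lack a classical secretion signal and guard the cytosol of the cells that make or meet proteases. Serpinb2, also called plasminogen activator inhibitor 2, inhibits urokinase and is known as an inducible gene of monocytes and macrophages. Serpinb1a and Serpinb6a inhibit serine proteases of neutrophil granules, Serpinb9 inhibits granzyme B, and Serpinb8 inhibits the proprotein convertase furin.

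Myeloid-derived suppressor cells (MDSCs) were grown for 4 days from the bone marrow of wild type (WT) C57BL/6 mice of 6 to 10 weeks of age with IL-6 and GM-CSF at 40 ng/ml each, and live CD11b+ cells were profiled by droplet single-cell RNA sequencing. The cultures received isoproterenol (ISO), a β-adrenergic agonist, at 10 µM each day from the start, or PBS, which poses the question of how MDSCs respond to adrenergic stimulation. The groups were WT+PBS and WT+ISO. Each group is 1 library, so no value below has a replicate check and none is tested. Treatment, mouse and culture cannot be told apart, and the treatment label reads isoproterenol for both samples, against the titles and the methods, which were followed.

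After filtering, 4474 of 4532 WT cells were kept, 2210 with PBS and 2264 with ISO, holding 24393687 and 29400468 unique molecular identifiers (UMIs, 1 per captured RNA molecule). Median depth was 8088.5 UMIs per cell with PBS and 10252 with ISO. Levels are given as UMIs per 1000000 UMIs of the library or cluster (CPM). Intervals below are 95% and cover counting error only. They take UMIs as independent, although a few cells can hold many of a gene's UMIs. An interval with only positive or only negative values thus does not settle the sign of a treatment difference.

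Clusters were found over all 9303 kept cells of the series, without any clade B serpin gene, and gave 7 clusters. In WT they were mature neutrophil-like (1163 cells), azurophil-granule neutrophil progenitor-like (821), specific-granule neutrophil-like (555) and dendritic cell-like (53), with 3 clusters unnamed, 1 led by Gpnmb and Atp6v0d2 (1048 cells, median 3583.5 UMIs), 1 led by Mrc1, Fgf13 and Plxdc2 (723 cells) and 1 led by the stefins Stfa3 and Stfa2 (111 cells). The Mrc1 cluster held the macrophage genes Adgre1 in 69.3% and Mrc1 in 32.4% of its WT cells, but C1qa, C1qb, C1qc and Apoe in under 10%, and the monocyte genes Ccr2 in 91.6%, Ly6c2 in 87.8%, Csf1r in 82.6% and F13a1 in 56.3%, so it is called by its leading gene. In the dendritic cell-like cluster Ccr7 was found in 73.6% and Fscn1 in 67.9% of cells. The clusters were rebuilt here, and a difference from the names used by the study may come from that.

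The genes lie in a pair of groups in the mouse genome (build GRCm38.p6, RefSeq). On chromosome 1, Serpinb2 (chr1:107500892-107525600), Serpinb10 (chr1:107528994-107560742) and Serpinb8 (chr1:107589926-107608978) are direct neighbours, with gaps of 3393 and 29183 bases and 0 annotated genes between them. On chromosome 13, Serpinb1a (chr13:32842092-32853206) is followed by Serpinb6b (chr13:32956811-32979067), Serpinb9 (chr13:32997061-33017955) and Serpinb6a (chr13:33917918-34002794). Serpinb6b and Serpinb9 are 17993 bases apart with 0 genes between them, while 25 genes, 11 of them clade B serpins, separate Serpinb9 from Serpinb6a. The neighbours Serpinb2 and Serpinb8 both had their highest level in the Mrc1 cluster. Serpinb6b and Serpinb9 had theirs in the dendritic cell-like cluster, and so did the more distant Serpinb6a. Serpinb1a, 103604 bases from Serpinb6b, did not. It was highest in specific-granule neutrophil-like cells and lowest in dendritic cell-like cells, at 30.2 CPM. The leading cluster of Serpinb2 depended on the clustering, as given below.

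The 250 bases before an annotated start of Serpinb2 (chr1:107511173-107511422, plus strand, GRCm38.p6, RefSeq) are shown because this gene differed most between the libraries among the 6. This window lies inside the gene span given above, which begins at 107500892. The bases before that point were not searched. Capitals mark, from 5′ to 3′, a match to TGACNTCA, a match to the AP-1 motif TGANTCA and a TATAAA box.
Serpinb2 upstream: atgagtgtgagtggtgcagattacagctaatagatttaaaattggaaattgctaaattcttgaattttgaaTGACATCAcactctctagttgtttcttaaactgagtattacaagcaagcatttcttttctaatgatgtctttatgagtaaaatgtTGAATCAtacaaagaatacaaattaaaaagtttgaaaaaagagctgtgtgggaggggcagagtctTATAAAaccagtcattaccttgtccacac
The TGACNTCA match lies 179 to 172 bases before the start, the AP-1 match 94 to 88 bases and the TATAAA box 29 to 24 bases. Counted from a second annotated start of Serpinb2, the window holds no TGACNTCA match, and the AP-1 match begins 181 bases and the TATAAA box 116 bases before that start. On either strand of 32851 mouse promoter windows of the same length, TGACNTCA was found in 7.49%, TGANTCA in 6.75% and TATAAA in 12.4%. The full cAMP response element TGACGTCA (1.55% of windows, and itself 1 form of TGACNTCA) and its shorter core TGACG (17.8%) had 0 matches in this window. TGACNTCA and TATAAA were added after the sequence had been read. Serpinb8 and Serpinb10 each had 1 match to TGANTCA and none to the other letters, the windows of Serpinb6a, Serpinb6b and Serpinb9 had no match to any of the 5, and Serpinb1a was not analysed here. A match is a run of letters and not a shown binding site.

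Serpinb2 was the member with the clearest contrast between the libraries. It gave 68 UMIs with PBS and 291 with ISO. These were 2.79 CPM (interval 2.17 to 3.53) and 9.90 CPM (8.79 to 11.1), and these counting intervals did not overlap. The level with ISO was 3.55-fold that with PBS, a log2 ratio of 1.83 (1.44 to 2.23), which is the value the gene was chosen for and is given as a description. Among 11852 genes with at least 50 UMIs in the WT pair, 1 had a higher ratio.

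**Figure D1:**
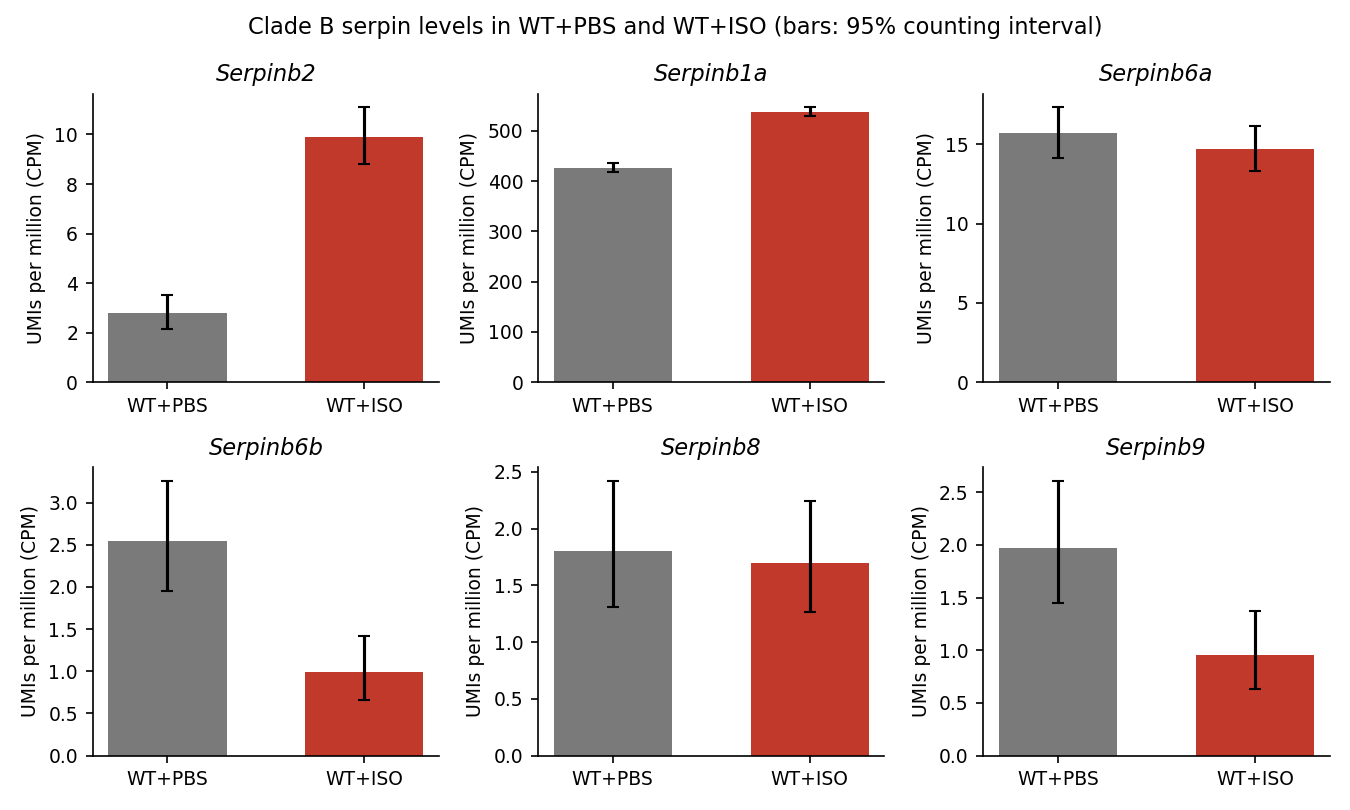
Level of 6 clade B serpins in WT+PBS and WT+ISO, in CPM on linear axes from 0, with 1 bar per library and 95% counting intervals. Serpinb2 was at 2.79 CPM with PBS and 9.90 with ISO, while Serpinb6b and Serpinb9 had their lower bar with ISO.

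Few cells carried Serpinb2. A UMI was found in 36 cells (1.63%) with PBS and 124 (5.48%) with ISO. With every cell thinned to 2000 UMIs the shares were 0.591% and 2.25%, in the same order. Single cells held up to 10 Serpinb2 UMIs with PBS and up to 29 with ISO. The 5 richest cells of each library held 34 of its 68 and 86 of its 291 Serpinb2 UMIs.

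By cluster, Serpinb2 was highest in the Mrc1 cluster, which held 61.6% of its UMIs. Over both libraries it had 17.8 CPM, the unnamed Gpnmb cluster 11.5 and mature neutrophil-like cells 8.40. Neighbouring ranges over the libraries overlapped, but such a range runs from the PBS to the ISO value. Within each library the order was the same, at 6.48, 2.72 and 2.70 CPM with PBS and 33.5, 23.3 and 11.8 with ISO. The last pair with PBS rests on 7 UMIs each. Specific-granule neutrophil-like cells had 2.44 CPM, the stefin cluster 1.92 and azurophil-granule progenitor-like cells 0.254. None of 53 dendritic cell-like cells had a UMI, where 3 counts would be 3.48 CPM. In the azurophil-granule progenitor-like cluster, 0.487% of cells had a UMI at a median depth of 23508 UMIs, a share read as background, against 8.16% at 16786 in the Mrc1 cluster. The order, size and name at the top depended on the clustering. Clusters rebuilt without the 17 cells of the series called doublets had a mature neutrophil-like cluster of 433 cells in the lead at 24.0 CPM. An unnamed one followed at 19.2 CPM. At Leiden resolution 0.6 the leading cluster was monocyte-like, with 639 cells, 19.3 CPM and 59.3% of the UMIs, and at resolution 1.0 it was macrophage-like, with 327 cells and 38.4 CPM.

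In the Mrc1 cluster, Serpinb2 gave 47 UMIs in 438 cells with PBS and 174 in 285 cells with ISO. These were 6.48 and 33.5 CPM, a log2 ratio of 2.37 (1.90 to 2.87). A UMI was found in 3.88% of these cells with PBS and 14.7% with ISO, and in 0.915% and 6.34% after thinning. A few cells carried much of the count, since the 5 richest cells held 34 of the 47 UMIs with PBS and 86 of the 174 with ISO. Both its level and its share of cells were thus higher with ISO within the cluster.

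The cells of the Mrc1 cluster also differed in their marker genes between the libraries. There the mannose receptor gene Mrc1 was at 168 CPM with PBS and 54.5 with ISO, and the complement gene C1qb at 39.9 and 4.62. The monocyte gene Ccr2 was at 339 and 268 CPM, F13a1 at 668 and 301, and Ly6c2 at 514 and 689. Summed over the 6 macrophage markers the cluster had 366 CPM with PBS and 188 with ISO, and over the 5 monocyte markers 1680 and 1394, so the library with more Serpinb2 had the lower sum of both. The part of cell makeup in the Serpinb2 values was not tested.

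Serpinb2 was higher with ISO in the next clusters of its order too. In the Gpnmb cluster it gave 7 UMIs with PBS and 45 with ISO, or 2.72 and 23.3 CPM, a log2 ratio of 3.10 (1.94 to 4.49). In mature neutrophil-like cells it gave 7 and 52 UMIs, or 2.70 and 11.8 CPM, a ratio of 2.12 (0.98 to 3.51). In specific-granule neutrophil-like cells the counts were 4 and 16 UMIs, with a ratio of 1.05 (−0.59 to 3.09), whose counting interval held both signs. The azurophil-granule progenitor-like cells gave 2 and 3 UMIs and the stefin cluster 1 and 1, too few to compare. Over all cells but the Mrc1 cluster Serpinb2 gave 21 and 117 UMIs, a log2 ratio of 1.98 (1.30 to 2.73), so the difference was as large without that cluster. Leaving it out was chosen after seeing the data. The counts of these clusters and of the Mrc1 cluster are parts of the total that Serpinb2 was chosen on. They describe that difference and give it no further support.

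**Figure D2:**
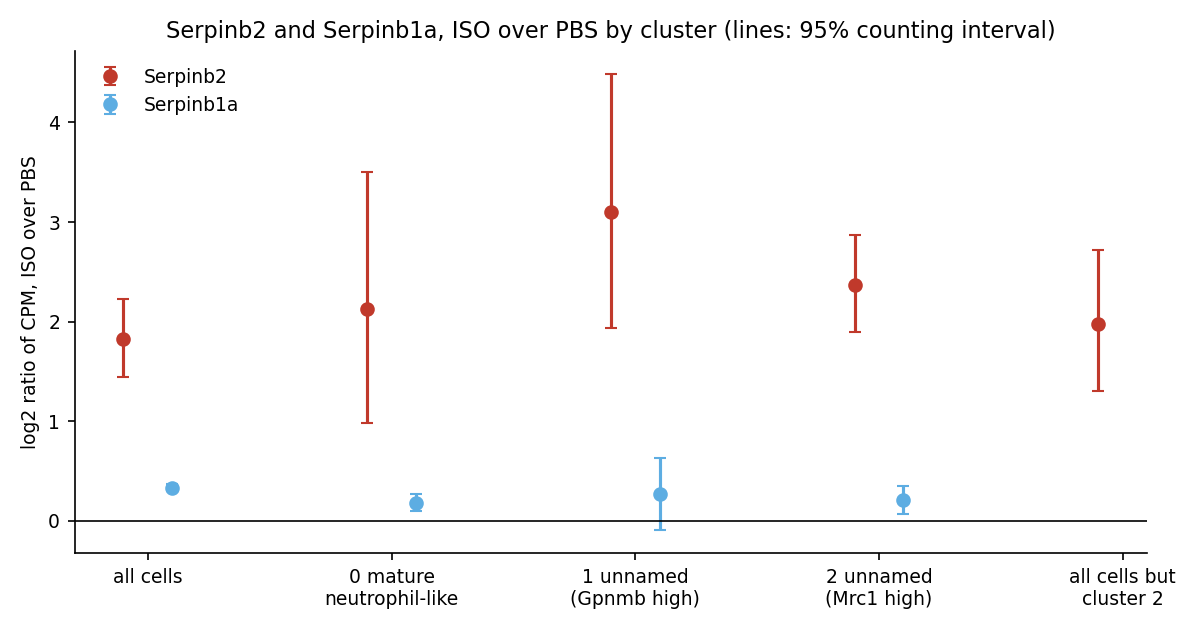
Log2 ratio of CPM, ISO over PBS (vertical axis), of Serpinb2 and Serpinb1a over all WT cells and in 3 clusters, and of Serpinb2 in all cells but the Mrc1 cluster, with 1 point per gene and 95% counting intervals. Serpinb2 lay between 1.83 and 3.10 at each position, and Serpinb1a between 0.19 and 0.34. The 3 clusters shown are those in which Serpinb2 was highest. Clusters not shown had Serpinb1a at −0.08 (azurophil-granule progenitor-like), −0.02 (specific-granule neutrophil-like), 0.24 (stefin) and 0.87 (dendritic cell-like, −0.37 to 2.09).

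Serpinb1a, an inhibitor of neutrophil elastase, cathepsin G and proteinase 3, made up 94.71% of the 27716 clade B UMIs. It gave 10413 UMIs with PBS and 15836 with ISO, or 427 and 539 CPM. The log2 ratio of ISO over PBS was 0.34 (0.30 to 0.37), far smaller than for Serpinb2 but on many more UMIs. A UMI was found in 52.9% and 72.3% of cells, and in 37.5% and 50.6% after thinning.

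By cluster, Serpinb1a was highest in the neutrophil-like clusters and the stefin cluster. It stood at 921 CPM in specific-granule neutrophil-like cells (918 to 929 over the libraries), 865 in the stefin cluster (805 to 951), 666 in mature neutrophil-like cells (613 to 697) and 564 in azurophil-granule progenitor-like cells (552 to 583). The ranges of the first pair overlapped, and each later step showed a gap. The Mrc1 cluster was at 137 CPM, the Gpnmb cluster at 57.9 and dendritic cell-like cells at 30.2. Droplets also hold free RNA. Per UMI of the granule gene Ngp there were 0.41 Serpinb1a UMIs in the Mrc1 cluster and 0.24 in azurophil-granule progenitor-like cells. The Gpnmb cluster and specific-granule neutrophil-like cells had 0.037 each. Other granule genes did not give equal values for that last pair. Per UMI of Camp they had 0.30 and 0.11, and per UMI of Elane 2.49 and 1.42. The part of free RNA was not tested.

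Where Serpinb1a was highest, it differed little with ISO. In specific-granule neutrophil-like cells it was at 929 CPM with PBS and 918 with ISO, a log2 ratio of −0.02 (−0.09 to 0.05). In mature neutrophil-like cells the levels were 613 and 697 CPM and the ratio 0.19 (0.10 to 0.27), in the stefin cluster 805 and 951 CPM and 0.24 (0.05 to 0.43), and in azurophil-granule progenitor-like cells 583 and 552 CPM and −0.08 (−0.13 to −0.03). The Mrc1 cluster was at 128 and 148 CPM, with a ratio of 0.21 (0.07 to 0.35). With all clusters given fixed weights the ratio of all cells was 0.03. The specific-granule neutrophil-like share of cells was 8.91% with PBS and 15.8% with ISO, and the azurophil-granule progenitor-like share 15.6% and 21.1%, and the mature neutrophil-like share 22.0% and 29.9%. These were higher with ISO, whereas the share of the stefin cluster was 2.99% and 1.99%. In a library sum, fewer cells of a type and less RNA per cell cannot be told apart, which holds for each all-cell value here.

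**Figure D3:**
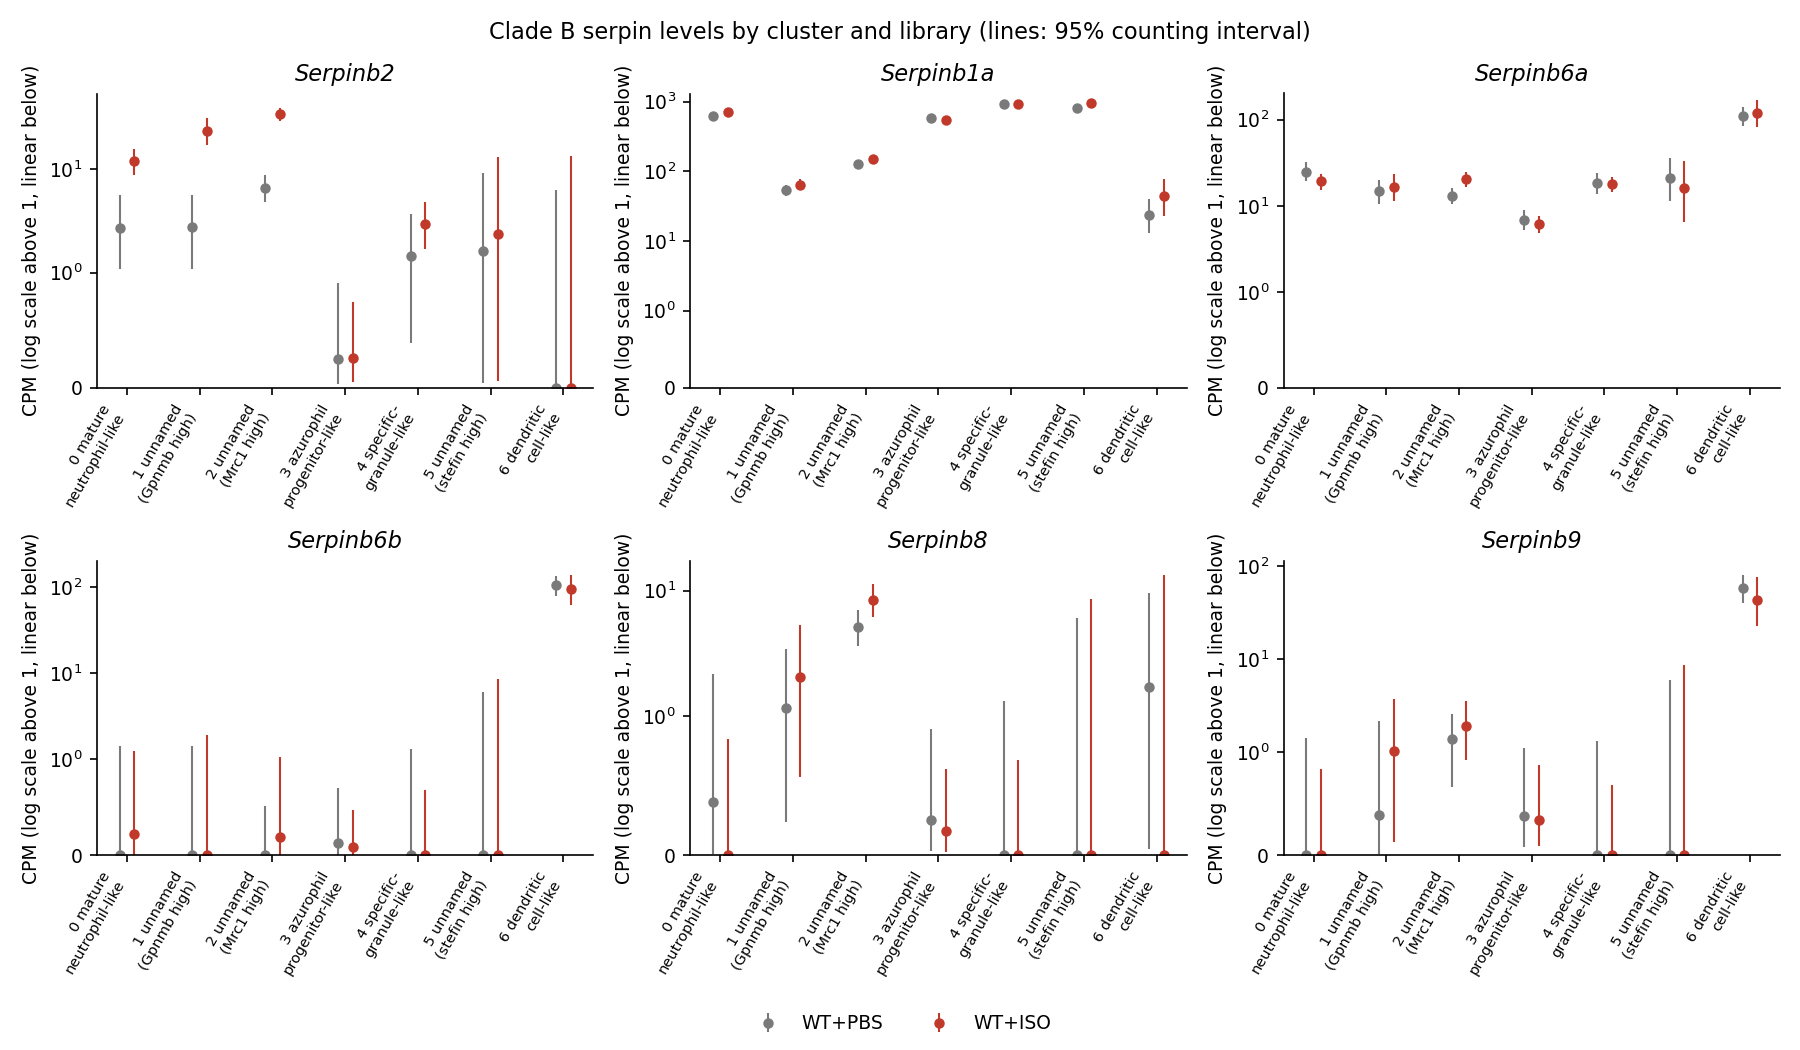
Level of 6 clade B serpins in each cluster, in CPM on an axis that is logarithmic above 1 and linear below, with 1 point for WT+PBS and 1 for WT+ISO and 95% counting intervals. Serpinb6b and Serpinb9 peak in dendritic cell-like cells and Serpinb8 in the Mrc1 cluster in both libraries, and Serpinb1a is at 918 to 929 CPM in specific-granule neutrophil-like cells.

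Serpinb6a, an inhibitor of cathepsin G, differed little between the libraries. It gave 383 UMIs with PBS and 432 with ISO, or 15.7 and 14.7 CPM. The log2 ratio of −0.10 (−0.30 to 0.11) spanned 0, and its sign turned with equal weight per cell, fixed cluster weights or thinning. A UMI was found in 11.9% and 14.6% of cells, which thinning brought to 3.50% and 3.79%.

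The highest Serpinb6a level was in dendritic cell-like cells, at 114 CPM, against 21.4 in mature neutrophil-like cells, 19.2 in the stefin cluster, 18.2 in specific-granule neutrophil-like cells, 16.2 in the Mrc1 cluster, 15.5 in the Gpnmb cluster and 6.45 in azurophil-granule progenitor-like cells. From mature neutrophil-like cells to the Gpnmb cluster, neighbours overlapped in their ranges over the libraries. The dendritic cell-like values were 111 CPM with PBS and 120 with ISO, from 65 and 33 UMIs, with a log2 ratio of 0.11 (−0.54 to 0.74). In the Mrc1 cluster Serpinb6a was at 13.1 and 20.4 CPM, from 95 and 106 UMIs, a ratio of 0.64 (0.23 to 1.06). Among all the clusters compared, without a test, this was the 1 in which its counting interval did not reach 0.

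Serpinb6b, a close relative of Serpinb6a, was found almost entirely in 1 small cluster. Dendritic cell-like cells, 1.19% of WT cells, held 87 of its 91 UMIs (95.6%), at 101.0 CPM, and the other 4421 cells held 4. In dendritic cell-like cells it was at 104 CPM with PBS and 94.5 with ISO, from 61 and 26 UMIs, with up to 12 and up to 6 UMIs in a cell. The log2 ratio there was −0.14 (−0.86 to 0.55). A UMI was found in 17 of 37 such cells (45.9%) with PBS and 7 of 16 (43.8%) with ISO.

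Serpinb9, the granzyme B inhibitor that protects cytotoxic and antigen-presenting cells from their own or a neighbour's granzyme, had the same leading cluster. Dendritic cell-like cells held 60.5% of its UMIs at 53.4 CPM, against 1.61 CPM in the Mrc1 cluster, which held 26.3%. Its dendritic cell-like levels were 58.0 CPM with PBS and 43.6 with ISO, from 34 and 12 UMIs, and the log2 ratio of −0.41 (−1.5 to 0.57) spanned 0. In the Mrc1 cluster it gave 10 UMIs with each treatment. A UMI of Serpinb9 was found in 39.6% of dendritic cell-like cells at a median of 14908 UMIs, and in 0.611% of all other cells.

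Over whole libraries, both genes were lower with ISO. Serpinb6b gave 62 UMIs with PBS and 29 with ISO, or 2.54 and 0.986 CPM, a log2 ratio of −1.37 (−2.06 to −0.71). Serpinb9 gave 48 and 28 UMIs, or 1.97 and 0.952 CPM, a ratio of −1.05 (−1.77 to −0.35). With cells thinned to 2000 UMIs the ratio of Serpinb6b was −0.49 and that of Serpinb9 −1.30. These rest on very few counts. A Serpinb6b UMI was left in 7 cells with PBS and 5 with ISO, and a Serpinb9 UMI in 7 and 3.

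The number of dendritic cell-like cells was lower with ISO as well. There were 37 with PBS and 16 with ISO, or 1.67% and 0.707% of cells. The 6 dendritic cell markers summed to 942 and 317 CPM over the libraries, with 5 of 6 lower with ISO. Most of that sum was Cd74, at 721 and 238 CPM, of which 9288 of 17593 UMIs with PBS and 2959 of 7003 with ISO lay in the Mrc1 cluster, where the 6 markers summed to 1511 and 688 CPM. Ccr7, the receptor of migrating dendritic cells, stood at 13.5 and 6.53 CPM. Within the cluster the intervals of both ratios spanned 0, as given above, and with fixed cluster weights the ratio of all cells was −0.06 for Serpinb6b and 0.01 for Serpinb9.

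**Figure D4:**
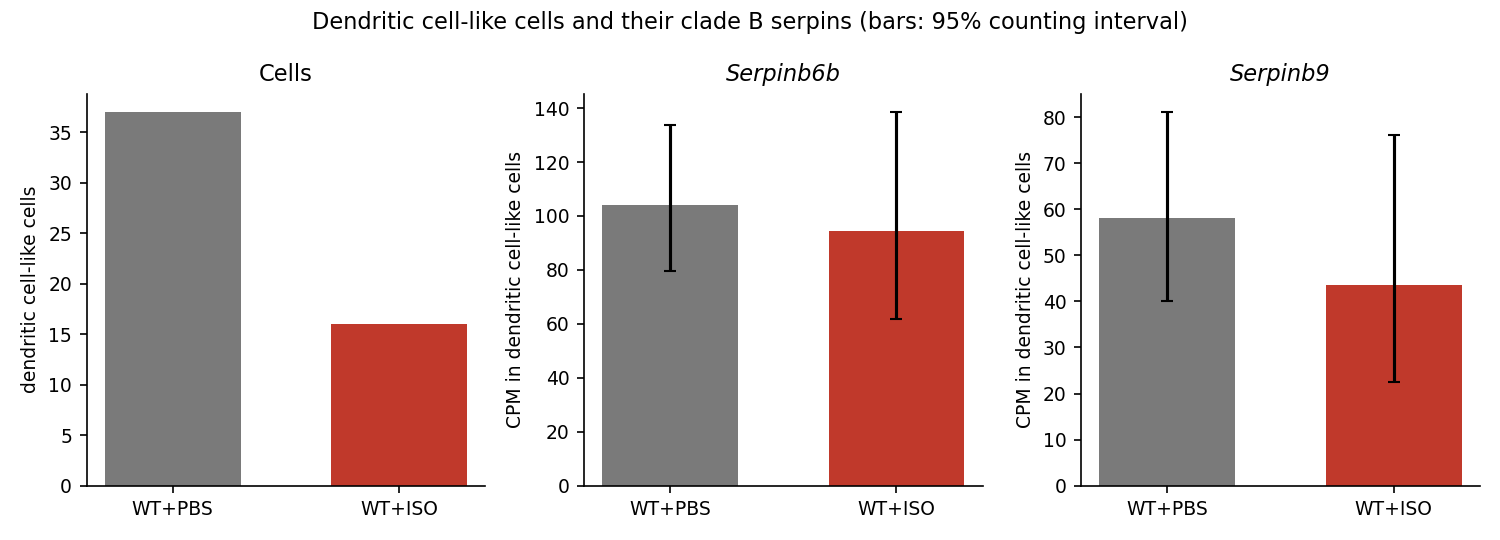
Number of dendritic cell-like cells (left) and level of Serpinb6b and Serpinb9 within them in CPM (middle and right), each on a linear axis from 0 with 1 bar per library and 95% counting intervals on the levels. There were 37 such cells with PBS and 16 with ISO, while Serpinb6b stood at 104 and 94.5 CPM and Serpinb9 at 58.0 and 43.6.

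Serpinb8, the furin inhibitor, was highest in the Mrc1 cluster. That cluster held 86.2% of its UMIs, at 6.51 CPM, against 1.55 in the Gpnmb cluster, and specific-granule neutrophil-like and stefin cluster cells had 0 UMIs. A UMI was found in 9.13% of its cells and in 0.347% of all others, with at most 3 UMIs in a cell. At Leiden resolution 0.6, 77.7% of its UMIs lay in the monocyte-like cluster, at 6.63 CPM, and 8.51% in a macrophage-like cluster of 82 cells, at 6.24 CPM. Over whole libraries it gave 44 UMIs with PBS and 50 with ISO, or 1.80 and 1.70 CPM, with a log2 ratio of −0.08 (−0.70 to 0.53). The share of cells in the Mrc1 cluster was lower with ISO, at 12.6% against 19.8%.

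Within the Mrc1 cluster Serpinb8 was at 5.10 CPM with PBS and 8.47 with ISO, from 37 and 44 UMIs. The log2 ratio there was 0.73 (0.07 to 1.40), and outside the cluster, where 7 and 6 UMIs were left, −0.72 (−2.57 to 1.08). Like its neighbour Serpinb2 it was thus higher with ISO in these cells, by less and on far fewer UMIs. This was not particular to the neighbours. The chromosome 13 members Serpinb6a (0.64), Serpinb9 (0.48, −0.94 to 1.90) and Serpinb1a (0.21) also had ratios above 0 in the Mrc1 cluster. The ratios of all genes within that cluster are not given here. The all-cell ratio of Serpinb8, −0.08, turned to 0.64 with fixed cluster weights and 0.51 with thinned cells. The thinned value rests on very few counts, as a UMI was left in 4 cells with PBS and 6 with ISO.

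**Figure D5:**
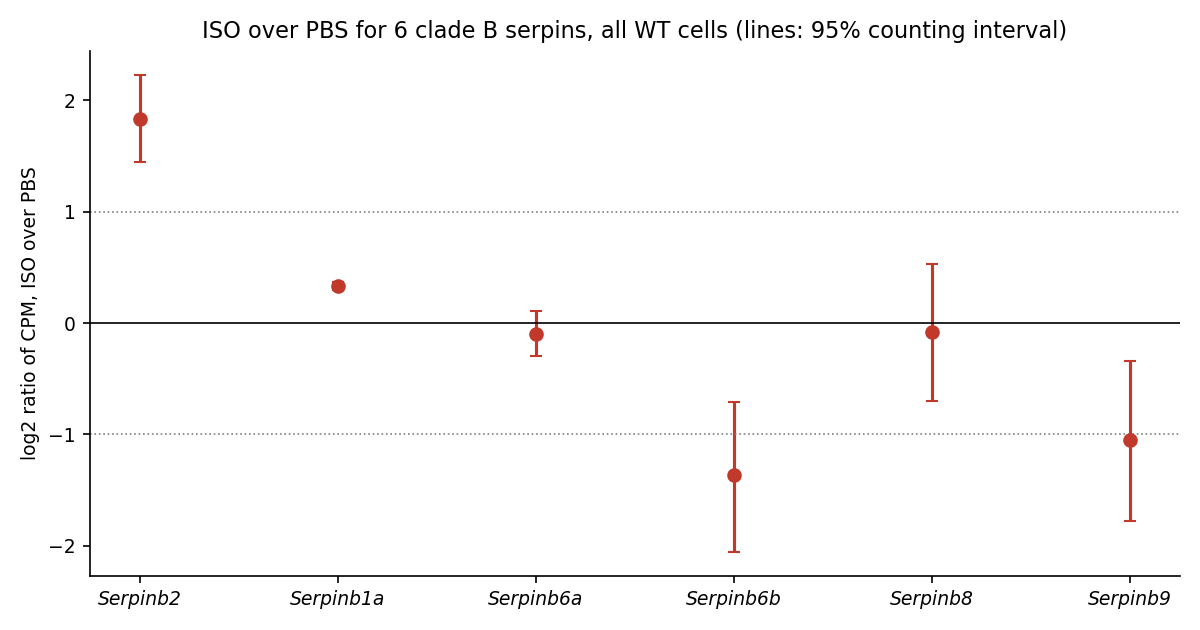
Log2 ratio of CPM, ISO over PBS (vertical axis), over all WT cells for 6 clade B serpins, with 1 point per gene, 95% counting intervals and dotted lines at a 2-fold difference. Serpinb2 lies above the upper line at 1.83, and Serpinb6b and Serpinb9 lie below the lower line at −1.37 and −1.05.

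Set against all 11852 genes with at least 50 UMIs in the pair, at least 2-fold differences were uncommon. With ISO, 1 of the 6 members was higher (Serpinb2, which the choice of genes fixed) where 0.219% of all genes were, and 2 were lower (Serpinb6b and Serpinb9) where 2.54% were. Their median log2 ratio was −0.02. Of these genes 762 had a higher ratio than Serpinb1a, while 148 had a lower one than Serpinb6b and 279 a lower one than Serpinb9.

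The other 21 clade B rows were nearly silent. There were 15 with 0 UMIs and 6 with fewer than 50. Serpinb12, named after its value was seen, had the most, with 22, and the next had 4. Among the rows closest to the members by symbol, Serpinb1b had 4 UMIs, Serpinb1c 2, Serpinb6c 1 and Serpinb9b 2, while Serpinb6d, Serpinb6e and Serpinb9c to Serpinb9g had 0. How alike these genes are in sequence was not compared here. Reads that fit more than 1 of them could be lost or misplaced in counting. The levels of Serpinb1a, Serpinb6a, Serpinb6b and Serpinb9 are uncertain to that extent.

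Proteases and pathways that clade B serpins act on were looked up as lists, and furin, the target of Serpinb8, is in none of them. Over all 11852 genes, 0.219% were at least 2-fold higher and 2.54% lower, with a median log2 ratio of −0.02. A count of 0 among so few listed genes is near these shares. The share of all genes above 0 is not given here. Of 13 genes of plasminogen activation, the system that Serpinb2 restrains, 8 reached 50 UMIs and 0 differed by 2-fold with ISO, with a median log2 ratio of −0.14 and 1 above 0. Thbs1, which encodes the matrix protein thrombospondin 1, was at 966 CPM with PBS and 835 with ISO. Anxa2, a subunit of a cell-surface plasminogen receptor, was at 826 and 612 CPM, and its partner S100a10 at 510 and 323. Plau, which encodes the Serpinb2 target urokinase, gave 126 UMIs with PBS and 160 with ISO, a log2 ratio of 0.08 (−0.27 to 0.42).

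Of 15 granule serine proteases, among them targets of Serpinb1a and Serpinb6a, 6 reached 50 UMIs. With ISO, 0 were at least 2-fold higher and 1 was lower, the basophil protease Prss34, which gave 102 UMIs with PBS and 2 with ISO. The other 5 were above 0, and the median log2 ratio was 0.31. Among them Mcpt8, a mast cell or basophil marker, gave 71 UMIs with PBS and 101 with ISO. The 5 mast cell or basophil markers summed to 143 and 148 UMIs, or 5.86 and 5.03 CPM, over the libraries, with Mcpt8 a large part. Mcpt8 was highest in azurophil-granule progenitor-like cells, at 8.22 CPM. The sum thus does not show whether the other markers shared the difference of Prss34. Elane (neutrophil elastase) was at 1374 CPM with PBS and 1735 with ISO, Prtn3 (proteinase 3) at 1424 and 1935, and Ctsg (cathepsin G) at 493 and 633, with log2 ratios of 0.34, 0.44 and 0.36 beside 0.34 for Serpinb1a. The azurophil-granule progenitor-like cells, where all 3 were highest, had a higher share with ISO, as did the specific-granule and mature neutrophil-like cells. Levels of these proteases by library within clusters are not given here, and the part of cell shares was not tested. Gzmb, which encodes the Serpinb9 target granzyme B, had 0 UMIs.

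Of 10 lysosomal cysteine cathepsins, 8 reached 50 UMIs and 0 differed by 2-fold with ISO, with a median of −0.38 and 1 above 0. Ctsc, which activates granule proteases, was at 449 CPM with PBS and 301 with ISO, Ctsz at 401 and 385, and Ctsb at 236 and 200. Of 35 serpins of other clades, 5 reached 50 UMIs and 0 differed by 2-fold with ISO. Serpine2 (protease nexin 1) gave 123 and 147 UMIs, Serpina3g 75 and 111, and Serpinc1 (antithrombin) 60 and 60.

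Across the 14 combinations of cluster and library, which share cells' depth and library, likeness to other genes was described by Pearson's r of log2 levels over 9236 genes. Nearest to Serpinb2 were Adam15 (0.880), Hcls1 (0.864), Cdc42se1 (0.862), Pilra (0.854) and Fgd6 (0.849). Over whole libraries these genes differed little, with Adam15 at 40.8 CPM with PBS and 40.1 with ISO, and Hcls1 at 119 and 125. Nearest to Serpinb6b were Fscn1 (0.996), Ccr7 (0.996) and Adam23 (0.981), each a gene that led the dendritic cell-like cluster. Outside that cluster Serpinb6b was at most 0.226 CPM in either library, so its values of r rest on that cluster. Serpinb9 and Serpinb6a also had their highest level there. Nearest to Serpinb9 were Tmtc2 (0.989), Etv6 (0.982) and Gnb4 (0.982), and nearest to Serpinb6a Etnk1 (0.970), Ly75 (0.960) and Mrtfa (0.960). Nearest to Serpinb1a were Arhgdib (0.981), Prom1 (0.980) and Abhd5 (0.978), and nearest to Serpinb8 St18 (0.948), Cd180 (0.926) and Spp1 (0.926). Among the members, Serpinb6b and Serpinb9 were most alike (0.967), then Serpinb6a and Serpinb6b (0.886), and Serpinb2 and Serpinb8 had 0.589, while Serpinb1a and Serpinb9 ran against each other (−0.784).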

How the data were processed

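Raw UMI counts, not normalized, were deposited by the authors as a matrix of genes by cells for each library. Per the file headers they come from Cell Ranger 7.0.0, whereas the submitters' processing notes name Cell Ranger 6.0.0, Seurat and mm10, and the conflict was not resolved. The 12 multiplexing tags were left out. The paper's methods describe cells labelled with feature barcodes and pooled before loading, and in each group 1 tag led all barcodes. The groups may thus share a capture and its free RNA. The word library stands here for the cells of 1 group. No barcode was shared between libraries. Groups follow the sample titles, and 2 other libraries and 1 of the gene lists are not reported here.

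Barcodes under 200 genes or over 10% mitochondrial UMIs were dropped. All kept cells of the series were clustered together and levels taken from the WT cells. Each cell's counts were brought to a sum of 10000 and logged, and 2000 variable genes without any Serpinb symbol, 30 principal components and 15 neighbours entered Leiden clustering at resolution 0.4 (scanpy 1.11.5, leidenalg 0.10.2, seed 0). A cluster was named when at least 3 markers of a class were present in 10% of its cells, their log2 ratio averaged 1 or more, and a marker stood among its 10 leading genes, over all clustered cells, and when at least 3 of the markers were also in 10% of its WT cells. Scrublet called 17 cells (0.183%) doublets, too few to have worked, so doublets were kept. The members, lists and naming rule were chosen with earlier results of these data known.

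CPM is the sum of a gene's UMIs over a library's or cluster's kept cells per 1000000 UMIs. Intervals are exact Poisson for levels, exact conditional binomial for ratios and Clopper-Pearson for shares, all at 95% and for counting error only (scipy 1.17.1). With 1 library per group no test was run. A gene was counted as different at a 2-fold ratio with at least 50 UMIs in the pair. For shares of cells, cells were thinned to 2000 UMIs and shallower cells left out. From each list the 3 members with the most UMIs over the series were named, with any at least 2-fold different in the WT pair. Plau, Gzmb and Mcpt8 were named outside this rule, after their values had been seen. On simulated counts of the WT pair with 200 of 11852 genes changed, 96% of their intervals held the true ratio. These counts were drawn as library sums from the counting model that the intervals assume, without cells or cultures. The simulation thus checks the calculation and cannot show that the intervals cover the spread of real cells or cultures. Alternatives covered the cell filter, thinning, cluster weights, rich cells, scaling and clustering. Promoter windows and gene positions came from RefSeq on GRCm38.p6 and were matched by symbol.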

Additional observations from a re-analysis of the deposited data

How the results depend on the processing

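No paired analysis was possible because a group here is a single library, and no library could be left out. Of 57 recomputed log2 ratios of the members, 41 fell inside the interval first given for that member and 16 outside it. For Serpinb2, fixed cluster weights gave 2.32, and leaving out the Mrc1 cluster, added after seeing the data, gave 1.98. Leaving out the richest 1% of cells gave 3.03, a value the cut itself shapes, since its 23 cells per library held 55 of 68 UMIs with PBS but 163 of 291 with ISO. The sign changed in 8 settings. These were Serpinb9 at fixed weights (0.0091), Serpinb8 at fixed weights (0.64) and thinned (0.51), and Serpinb6a in 5 settings (0.037 to 0.16), where the reported intervals of Serpinb8 and Serpinb6a span 0. The cause was not tested, except that fixed weights, taken from the clusters of the whole series, remove by construction what the cluster shares contribute. The highest cluster level moved beyond its interval in 10 of 42 settings. With at least 20 or at least 200 UMIs asked of a gene in place of 50, the share of genes at least 2-fold higher was 0.880% or 0.041% and lower 3.90% or 1.40%. Members other than Serpinb1a and Serpinb6a had at most 291 UMIs in a library, which limits every cluster value.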
